A study of Rattus norvegicus with 4 samples.

Results

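The farnesoid X receptor gene Nr1h4, the gene Nr0b2 of the small heterodimer partner SHP, and the bile acid synthesis enzymes Cyp7a1, Cyp8b1 and Cyp27a1 were followed in the liver of rats given alpha-naphthylisothiocyanate (ANIT). ANIT is a toxicant that injures the lining of bile ducts and causes cholestasis, the failure of bile flow. The genes were found on the array by their symbol in the platform annotation, keeping spots with a single symbol. All 5 genes were measured, by 9 of the 1648 gene spots, 2 spots each and 1 for Nr1h4, among 958 named genes.

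Male Sprague-Dawley rats (250 to 300 g) were injected into the peritoneum with ANIT at 75 mg/kg, dissolved at 7.5 mg/mL in olive oil, and control rats with the oil alone. RNA came from the right lateral liver lobe of 3 rats per treatment at 12 h and was mixed within a treatment, so each treatment was 1 pool. Both pools were hybridised together on 4 spotted cDNA arrays. On arrays 1 and 3 the ANIT RNA was labelled with Cy5 and the oil RNA with Cy3, and on arrays 2 and 4 the dyes were exchanged. Separate RNA preparations for the arrays are not described in the labels, so the spread between arrays is that of hybridisations, not of animals. In whole liver, fewer cells of a type and less RNA per cell cannot be told apart.

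Bile acids are made from cholesterol in hepatocytes. The receptor FXR binds bile acids and switches on Nr0b2, and SHP, which has no DNA-binding domain of its own, then represses the enzymes by acting on other nuclear receptors such as LRH-1 and HNF4 alpha. Cyp7a1 catalyses the rate-limiting first step of the classic pathway. Cyp8b1 adds the hydroxyl group that makes cholic acid, and Cyp27a1 is the mitochondrial sterol hydroxylase that opens the alternative pathway. The arrays compare the transcripts of this feedback loop after ANIT with those after oil, in values whose direction the labels do not state.

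The bases before the start sites of the regulator Nr0b2 and of its targets are shown because the loop acts through receptor motifs in such regions. The RefSeq promoter table of build GRCr8 held 3 of the 5 genes, and the 250 bases upstream of the start are printed 5′ to 3′ on the strand of the gene, with motif matches in capitals. The regions are chr5:151062910-151063159 on the plus strand for Nr0b2, chr8:130457593-130457842 on the minus strand for Cyp8b1 and chr9:83713282-83713531 on the plus strand for Cyp27a1.
Nr0b2: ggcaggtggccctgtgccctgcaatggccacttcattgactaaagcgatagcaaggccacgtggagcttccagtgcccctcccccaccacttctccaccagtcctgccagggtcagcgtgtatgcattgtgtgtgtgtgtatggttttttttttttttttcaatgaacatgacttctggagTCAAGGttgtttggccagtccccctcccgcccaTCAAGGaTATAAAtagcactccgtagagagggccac
Cyp8b1: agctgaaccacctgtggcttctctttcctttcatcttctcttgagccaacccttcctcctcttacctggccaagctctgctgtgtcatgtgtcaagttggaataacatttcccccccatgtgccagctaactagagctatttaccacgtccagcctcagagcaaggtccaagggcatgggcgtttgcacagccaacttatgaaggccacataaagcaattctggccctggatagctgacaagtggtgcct
Cyp27a1: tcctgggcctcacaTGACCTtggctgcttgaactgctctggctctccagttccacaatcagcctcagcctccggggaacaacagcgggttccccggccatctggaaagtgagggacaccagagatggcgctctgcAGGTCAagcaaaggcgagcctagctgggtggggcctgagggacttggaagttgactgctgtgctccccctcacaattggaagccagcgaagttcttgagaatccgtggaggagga
Both strands were searched for the nuclear receptor core AGGTCA, the LRH-1 core TCAAGG, the FXR type inverted repeat AGGTCANTGACCT and the TATA box TATAAA. The inverted repeat contains the receptor core, and TCAAGG can overlap it. Upstream of Nr0b2, TCAAGG matched 2 times, at 69 to 64 and at 36 to 31 bases before the start, and TATAAA matched 1 time, at 29 to 24 bases. Upstream of Cyp27a1, AGGTCA matched 2 times, 1 of them on the opposite strand as TGACCT. None of these letters occurred in the Cyp8b1 window, and the inverted repeat occurred in none of the 3. Among 33469 promoter windows of this length, 14.1% held AGGTCA, 12.6% TCAAGG, 12.9% TATAAA and 0.0269% the inverted repeat. These matches describe the letters and were not tested as binding sites. Sites farther upstream or with other letters were not searched, so a motif without a match here may still be present.

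The values were log ratios of the 2 dyes with no base or direction in the labels. They are therefore written in log units with a positive or negative side and no statement of more or less transcript. Each gene was split into a shared component, the mean over all 4 arrays, and a swap component, the part that changes sign with the dye orientation (positive where arrays 1 and 3 stood above arrays 2 and 4). If every array gave the same treatment over the other, the shared component would hold the comparison of ANIT with oil. If every array gave the same dye over the other, the swap component would hold it. The reading was not settled by the labels, and both are reported for each gene. Pearson's r over the 1648 gene spots, which share probes and clones, was 0.955 and 0.948 for arrays of the same orientation and lay between -0.907 and -0.880 for arrays of opposite orientation. The swap component was thus the wider of the pair, with an SD of 0.45 log units over 1174 features (named genes and unnamed spots) against 0.099 for the shared component.

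The zero of the scale bears on every side given here. As deposited, the values had a control zero. Within a print block, the mean of the 3 spots at positions 89 to 91, which carry no annotation, had a median distance from 0 of 0.00095 log units over the 64 combinations of block and array. It was under 0.01 in 57 of them, while single spots of that set had an SD between 0.049 and 0.059. At the other control positions the corresponding median distance was at least 0.17. Which gene these spots hold is not stated in the sources used here, and the labels name GAPDH, HPRT and beta-actin as positive controls. The median gene spot lay away from that zero, at -0.77, 0.32, -0.72 and 0.30 on arrays 1 to 4. Values called centred have each array's median gene spot at 0. Values called deposited are as the authors gave them, relative to those control spots.

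**Figure D1:**
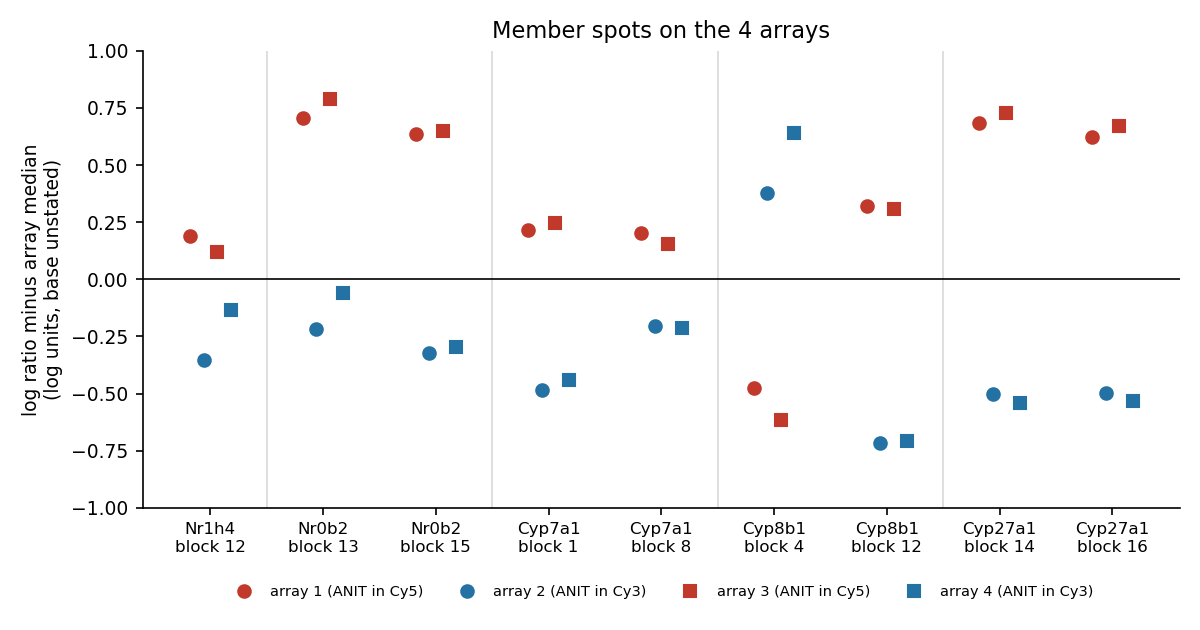
Centred log ratio (vertical axis, log units of unstated base) of each of the 9 spots of the 5 genes on each array, with ANIT in Cy5 (red) or Cy3 (blue); circles are arrays 1 and 2, squares arrays 3 and 4. For 8 spots the red points lie above 0 and the blue points below, and for the Cyp8b1 spot of block 4 the order is turned.

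In the shared component, Nr0b2 stood on the positive side and was the 1 gene of the 5 that passed (limma fit with a dye term, Benjamini-Hochberg adjusted p under 0.05). Of all features, 3.92% passed there, 46 in number, 19 positive (1.62%) and 27 negative. Their number changed when 1 array was left out. The other 4 genes stood between -0.11 and 0.079 and did not pass. In the swap component, Nr1h4, Nr0b2, Cyp7a1 and Cyp27a1 passed on the positive side and Cyp8b1 did not. Of all features, 86.5% passed there, 40.6% above 0 and 45.8% below it, so that 4 of 5 genes called is near the background of calls on either side, while all 4 lay on the positive side. The same 4 genes had the orientations on opposite sides of 0 on all 4 arrays, as did 84.5% of all features. The median over the 5 genes was -0.045 in the shared and 0.27 in the swap component, beside 0.0042 and -0.041 over all features. No filter on low values was used, and every spot entered.

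Nr0b2 encodes the repressor of the loop. Its spot in print block 13 had centred values of 0.71, -0.22, 0.79 and -0.061 on arrays 1 to 4. Its spot in block 15, from another cDNA clone, had 0.64, -0.32, 0.65 and -0.30. Both spots lay above 0 on arrays 1 and 3 and below 0 on arrays 2 and 4. Such a split was common, since 84.5% of all features had the orientations on opposite sides of 0. On the positive orientation the block 13 spot lay at the 96.8 and 98.7 percentiles of the gene spots of arrays 1 and 3. On the other it lay at percentiles 37.2 and 47.0 of arrays 2 and 4, so it stood high in the first orientation without standing as low in the second. Averaged over both spots, the shared component was 0.24 ± 0.041 log units (SE, n = 4 arrays), with a 95% interval from 0.14 to 0.33 and an adjusted p of 0.0132 in limma. It ranked 14 from the top among 1174 features. If the shared component holds the comparison with oil, it would be 1.18-fold for base 2, 1.27-fold for natural logarithms and 1.72-fold for base 10. The swap component was 0.46 ± 0.041 (adjusted p = 5.30e-06), at the percentile 82.0 of all features. If the swap component holds the comparison instead, it would be 1.38-fold, 1.58-fold and 2.89-fold for the same 3 bases.

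The positive side of Nr0b2 is a position relative to the median gene spot. As deposited, its block 13 spot read -0.057, 0.10, 0.074 and 0.24 on arrays 1 to 4, and its block 15 spot read -0.13, -0.0011, -0.064 and 0.00010. These values lie on both sides of 0, and the block 13 spot on array 4 lay nearer to that array's median gene spot, 0.30, than to 0. Their mean over spots and arrays was 0.020 ± 0.038 (adjusted p = 0.62 in limma), in a fit where 90.4% of features passed, 4 positive and 1057 negative. The control spots at positions 89 to 91 had a median shared component of 0.22 on the centred scale (48 spots, 5th to 95th percentile 0.19 to 0.24), and Nr0b2 at 0.24 stood beside them. When each spot was tested on its own, the block 13 spot passed at 0.30 (adjusted p = 0.00279) and the block 15 spot at 0.17 did not (adjusted p = 0.0523), where 5.28% of 1648 spots passed. Without array 3 the gene stood at 0.22 and missed the threshold (adjusted p = 0.0735). With no dye effect in the model, its SE was 0.23, its adjusted p was 1.00, and 0% of the 1174 features passed (0 in all, and 5 by unadjusted p below 0.05).

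**Figure D2:**
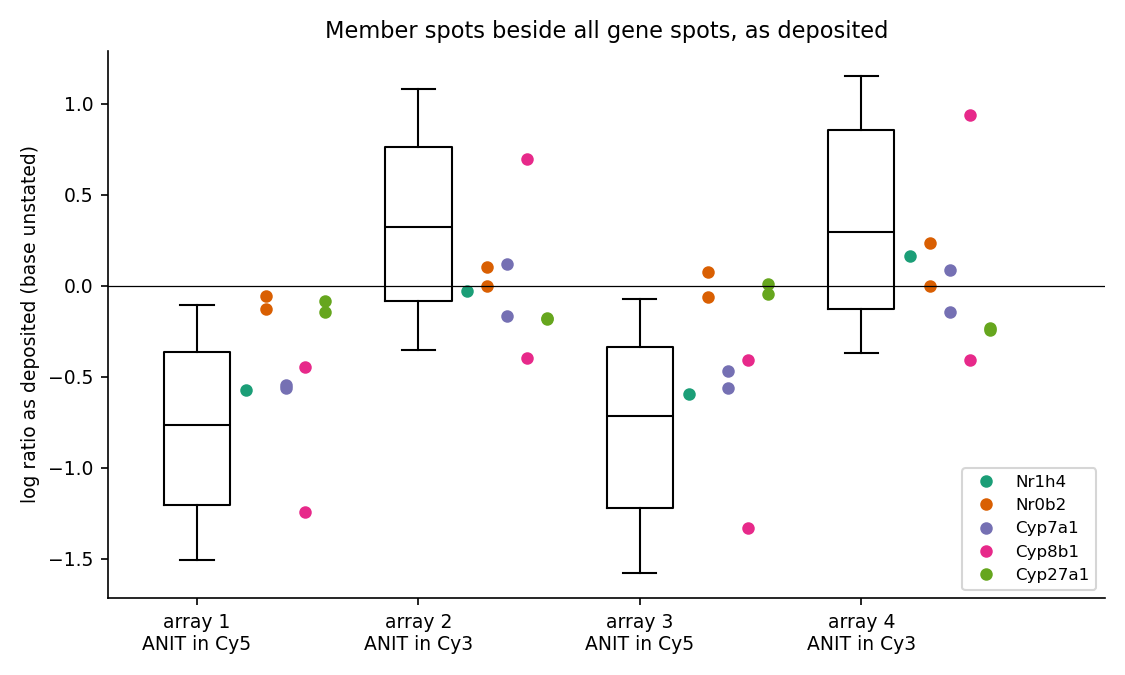
Log ratios as deposited (vertical axis, base unstated) on the 4 arrays; boxes span the quartiles of 1648 gene spots with the median as a line, whiskers the 5th to 95th percentiles, and coloured points are the spots of the 5 genes. The box medians lie at -0.77 and -0.72 on arrays 1 and 3 and at 0.32 and 0.30 on arrays 2 and 4, whereas the Nr0b2 spots lie between -0.13 and 0.24 and the Cyp27a1 spots between -0.24 and 0.010 over the 4 arrays.

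Nr1h4 encodes FXR, the bile acid sensor that induces Nr0b2. Its 1 spot had centred values of 0.19, -0.35, 0.12 and -0.14 on arrays 1 to 4. Arrays 1 and 3 lay above arrays 2 and 4, and arrays 2 and 4 differed from each other by 0.22. The shared component was -0.045 ± 0.048 (SE, n = 4 arrays; adjusted p = 0.68), with an interval from -0.15 to 0.064. It turned to 0.0091 without array 2, so it had no settled side. The swap component was 0.20 ± 0.048 (adjusted p = 0.0034), and when print blocks were centred singly it was 0.071 and did not pass (adjusted p = 0.22). As deposited the spot read -0.58, -0.031, -0.60 and 0.16.

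Cyp7a1, the rate-limiting enzyme, was measured by 2 spots made from the same cDNA clone, in blocks 1 and 8, which are therefore not independent probes. The block 1 spot had centred values of 0.22, -0.49, 0.25 and -0.44 on arrays 1 to 4. The block 8 spot had 0.20, -0.20, 0.15 and -0.21. With whole arrays centred, the spots were alike on arrays 1 and 3 and differed by 0.28 and 0.23 on arrays 2 and 4. There the block 1 spot was the lower. The median gene spot of block 1 stood at -0.19, 0.16, -0.23 and 0.21 on arrays 1 to 4. That of block 8 stood at 0.15, -0.074, 0.25 and 0.0093, so the likeness on arrays 1 and 3 does not hold relative to each block. As a gene, Cyp7a1 was steady within each orientation, with differences of 0.0094 between arrays 1 and 3 and 0.016 between arrays 2 and 4. Its shared component was -0.065 ± 0.039 (SE, n = 4 arrays; adjusted p = 0.44), with an interval from -0.15 to 0.024. Its swap component was 0.27 ± 0.039 (adjusted p = 0.00014). As deposited, the spots read -0.55, -0.16, -0.47 and -0.14 in block 1 and -0.56, 0.12, -0.56 and 0.085 in block 8.

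Cyp8b1, the enzyme that sets the share of cholic acid, had 2 spots from different clones that stood on opposite sides. The block 4 spot had centred values of -0.48, 0.38, -0.62 and 0.64 on arrays 1 to 4. The block 12 spot had 0.32, -0.72, 0.31 and -0.71. The 2 spots ordered the orientations oppositely, and block 4 minus block 12 was -0.80, 1.09, -0.92 and 1.35 on arrays 1 to 4. The mean over both was -0.078, -0.17, -0.15 and -0.033, negative on all 4 arrays as in 1.53% of features, and is a middle that neither clone measured. In the gene average the shared component was -0.11 ± 0.043 (SE, n = 4 arrays; adjusted p = 0.24), with an interval from -0.21 to -0.010, and the swap component was -0.0077 (adjusted p = 0.87). Tested on its own, the block 12 spot passed in the shared component at -0.20 ± 0.045 (adjusted p = 0.0224), and the block 4 spot at -0.019 did not (adjusted p = 0.88). The swap component of the block 4 spot stood at -0.53 and that of the block 12 spot at 0.51, and both passed, where 89% of spots did. As deposited the block 12 spot was nearly level over the arrays, at -0.44, -0.40, -0.41 and -0.41, while the block 4 spot read -1.24, 0.70, -1.33 and 0.94. The shared component of the block 12 spot lay at the percentile 2.43 of all gene spots. Which clone measured Cyp8b1 was not tested.

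Cyp27a1, the sterol hydroxylase of mitochondria, had the closest pair of spots once whole arrays were centred. Its block 14 spot had centred values of 0.68, -0.50, 0.73 and -0.54 on arrays 1 to 4. Its block 16 spot, from another clone, had 0.62, -0.50, 0.67 and -0.53. On that scale the spots lay within 0.060 of each other on every array. The median gene spot of block 14 stood at -0.10, -0.029, 0.017 and -0.20 on arrays 1 to 4. That of block 16 stood at 0.079, -0.19, 0.25 and -0.14, so closeness on every array does not hold relative to each block. The shared component was 0.079 ± 0.040 (SE, n = 4 arrays; adjusted p = 0.35), with an interval from -0.012 to 0.17. The swap component was the largest of the 5 genes, 0.60 ± 0.040 (adjusted p = 1.50e-06), and ranked 56 from the top among 1174 features. As deposited the block 14 spot read -0.082, -0.18, 0.010 and -0.24 and the block 16 spot -0.14, -0.18, -0.044 and -0.23, below the control zero except for the block 14 spot on array 3. There the shared component of the gene was -0.14 (adjusted p = 0.0121), on the other side of 0.

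**Figure D3:**
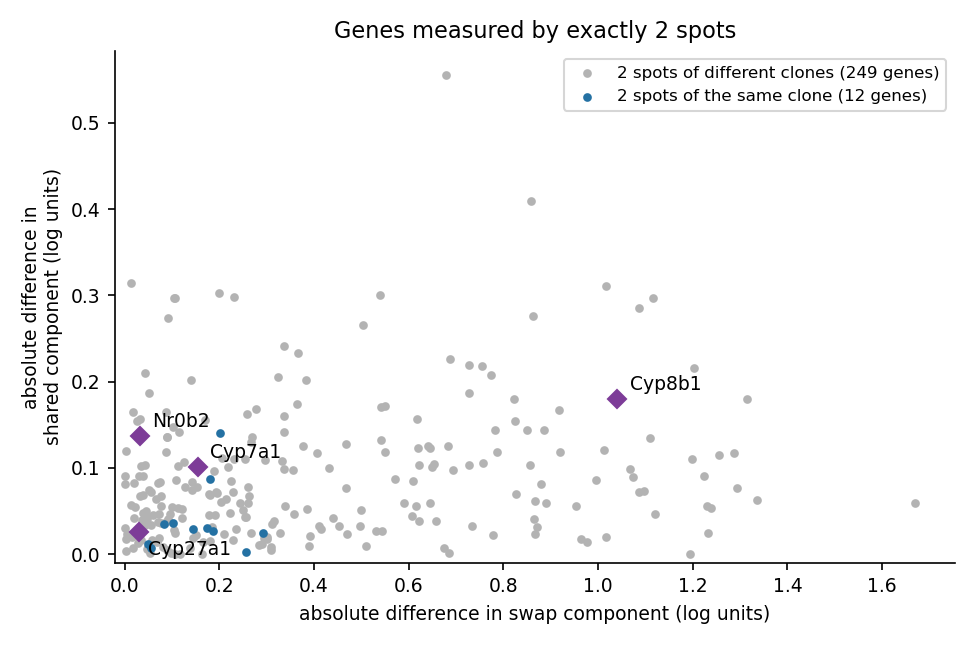
Absolute difference between the 2 spots of a gene in the swap component (horizontal axis) and in the shared component (vertical axis), in log units, for 261 genes with exactly 2 spots; diamonds are the 4 genes of the loop with 2 spots, and blue points are spots of the same clone. Cyp8b1 lies far to the right at 1.04, and Cyp27a1 and Nr0b2 lie at 0.031 and 0.033.

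The agreement of spots can be set against the 261 genes of the array with exactly 2 spots. Over these genes the median distance between spots was 0.26 in the swap and 0.068 in the shared component. Whole arrays were centred for these distances, so they still hold differences between print blocks. The distance for Cyp8b1 was 1.04 in the swap component, larger than in 239 of the 261 genes, and 0.18 in the shared component, larger than in 233. Its opposite sides are not rare here, since the swap component had opposite signs in 98 of 249 genes with different clones (39.4%) and in 0 of 12 genes with the same clone. For Nr0b2 the distance was 0.033 in the swap component, with 20 genes smaller, and 0.14 in the shared component, with 209 smaller. The spots of Nr0b2 thus stood close in the component that flips and apart in the shared component that was called. Cyp27a1 was close in both, at 0.031 and 0.026, and Cyp7a1 lay at 0.15 and 0.10.

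Against the deposited zero the genes kept their order in the shared component, since the centring moves all of them alike, and Cyp27a1 was the 1 gene that changed side. The deposited shared components were 0.020 for Nr0b2, -0.14 for Cyp27a1, -0.26 for Nr1h4, -0.28 for Cyp7a1 and -0.32 for Cyp8b1. All but Nr0b2 passed there on the negative side, beside 90% of all features on that side, so their count is no more than the background. The median feature stood at -0.21 on that scale. Deposited swap components were 0.072 for Cyp27a1, -0.064 for Nr0b2, -0.25 for Cyp7a1, -0.33 for Nr1h4 and -0.53 for Cyp8b1, with -0.57 for the median feature. Of all features, 80.9% passed there, with Cyp7a1, Nr1h4 and Cyp8b1 among them and Nr0b2 and Cyp27a1 not. Of the features that passed, 33 were positive and 917 negative. Sides given for swap components of other genes are those of the centred scale, and a positive one need not hold as deposited.

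**Figure D4:**
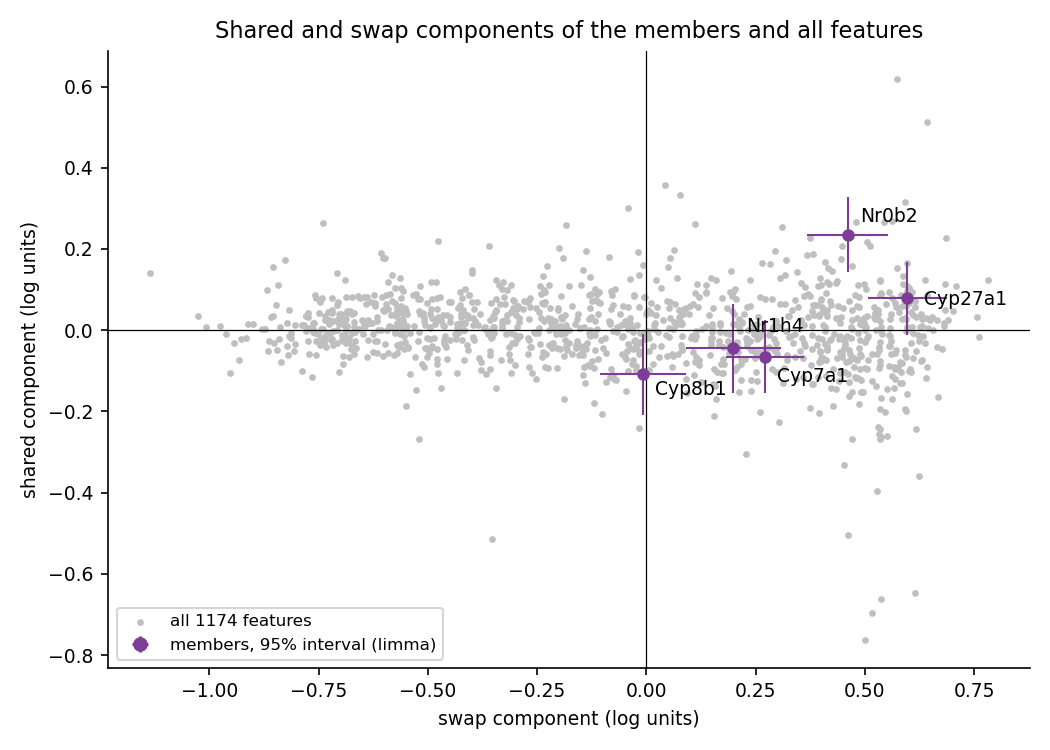
Swap component (horizontal axis) and shared component (vertical axis), in log units after centring, of all 1174 features (grey) and the 5 genes (purple, with 95% intervals from limma). Nr0b2 is the gene whose shared interval lies wholly above 0, at 0.24, and Cyp27a1 lies farthest right, at 0.60.

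Differences between genes on an array do not depend on the array's centre, but still hold the control zero of each gene's print block. Nr0b2 minus Cyp7a1 was 0.46, 0.073, 0.52 and 0.15 on arrays 1 to 4, a mean of 0.30 ± 0.22 (SD, n = 4 arrays), positive on 4 of 4. Nr0b2 minus Cyp27a1 was 0.019, 0.23, 0.022 and 0.36, a mean of 0.16 ± 0.17, also positive on 4 of 4. In both, the arrays of 1 orientation carried most of the difference, arrays 1 and 3 against Cyp7a1 and arrays 2 and 4 against Cyp27a1. Nr0b2 minus Cyp8b1 was 0.75, -0.10, 0.88 and -0.15, and Nr1h4 minus Nr0b2 was -0.48, -0.081, -0.60 and 0.043, with mixed signs. Over the 10 pairs, the exact sign-flip permutation test (two-sided, 4 arrays) gave p = 0.125, the smallest that 16 sign patterns allow, for these first 2 differences alone, and 0.625 after Benjamini-Hochberg adjustment. With 4 arrays this test cannot reach 0.05, and a p above it does not show that the genes stood alike. For swap components, the smallest p was reached by 6 pairs, with an adjusted p of 0.208, among them every pair with Cyp8b1, whose average joins clones of opposite sign. That of Cyp7a1 minus Cyp27a1 was -0.33 ± 0.17 (SD, n = 4 arrays) and that of Nr1h4 minus Cyp27a1 was -0.40 ± 0.18, negative on 4 of 4 arrays each once arrays 2 and 4 were turned.

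Genes with the nearest values over the 4 centred arrays, by Euclidean distance, differed from gene to gene of the loop. Nearest to Nr0b2 were the glucagon receptor Gcgr (distance 0.097), the glycolytic kinase Pgk1 (0.17) and the fatty acid synthase Fasn (0.18), where the median named gene lay at 1.17. Nearest to Cyp7a1 were the cadherin Cdh2 (0.054), the ribosomal protein gene Rps28 (0.061) and the kinase Plk2 (0.062), and nearest to Nr1h4 were the kinase Mapkapk2 (0.044), the growth factor receptor Fgfr2 (0.095) and the nuclear pore gene Ranbp2 (0.10). Nearest to Cyp27a1 were the endothelin-converting enzyme Ece1 (0.046), the RNA-binding protein Pcbp2 (0.076) and the nucleoside diphosphate kinase Nme2 (0.080). For Cyp8b1, averaged over clones that disagree, they were Dlk1, the glucocorticoid receptor Nr3c1 and the collagen gene Col6a1. Within the loop, Nr1h4 and Cyp7a1 were the closest pair (0.21), and Cyp8b1 and Cyp27a1 the farthest (1.28). With 4 arrays these distances are descriptions of nearness only.

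The rest of the pathway was covered in part. Of 17 further synthesis enzymes listed, 0 were among the named genes, and the 3 enzymes of the loop are thus the pathway's measured synthesis steps. Of 35 nuclear receptors and factors that work with FXR and SHP or on their targets, 12 were measured and 0 passed in the shared component, with 6 on each side and a median of -0.0062. Rxra, the partner with which FXR binds DNA, stood at -0.015 ± 0.041 (SE, n = 4 arrays), and the sterol receptor Nr1h2 (LXR beta) had the largest value, -0.12 ± 0.042 (adjusted p = 0.18 in limma). Of the 12, 9 passed in the swap component, 4 positive and 5 negative, beside 86.5% of all features. Of 18 bile acid and lipid transporters, 4 were measured and 0 passed in the shared component. The uptake carrier Slc10a1 (NTCP), known to be repressed through SHP, had the largest value, 0.060 ± 0.041 (adjusted p = 0.50). In the swap component all 4 transporters passed on the positive side, where 40.6% of all features did.

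Among 7 measured genes known as further FXR targets, direct or indirect, 1 passed in the shared component, the drug-metabolising Cyp3a23-3a1 at 0.25 ± 0.041 (adjusted p = 0.00944). Of all features, 3.92% passed there. The median of the 7 was 0.12, beside 0.0042 over all features, with 6 positive and Apoa1 negative at -0.095. As deposited 1 of the 7 was positive. The sides of the genes in a list were not tested as a set, here or below. Complement C3 stood at 0.17 and the fibrinogen chain Fgg at 0.13, neither past the threshold. The swap component passed on the positive side for 6 of the 7, where 40.6% of all features did. Of 10 measured kinases and cytokines known to act on Cyp7a1, 0 passed in the shared component, the largest being the cytokine Tnf at -0.13 ± 0.040 (adjusted p = 0.13). On the negative side lay 8 of them, with a median of -0.040 over the 10. Of 5 genes of cholesterol supply and use, 0 passed, with Scarb1, the receptor that takes up HDL cholesterol, the largest at -0.095. Of 3 electron donors of P450 enzymes, 0 passed, with cytochrome b5 (Cyb5a, 6 spots) at 0.14 ± 0.040 (adjusted p = 0.10) and the reductase Por, which serves Cyp7a1 and Cyp8b1, at -0.066. Swap components passed for 5 positive and 3 negative of the kinases and cytokines, 4 positive and 1 negative of the cholesterol genes, and 2 positive of the electron donors. Of all features, 86.5% passed in that component, 40.6% above 0 and 45.8% below it.

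The 25 other cytochrome P450 genes form the family of the 3 enzymes. Of these, 2 passed in the shared component, both positive, Cyp1a2 at 0.62 ± 0.040 (adjusted p = 4.4e-05) and again Cyp3a23-3a1. Of all features, 1.62% passed on that side. The median of the 25 genes was 0.038, beside 0.0042 over all features, with 19 positive and 6 negative, and as deposited 2 were positive. Cyp27a1 at 0.079 lay above that median, and Cyp7a1 at -0.065 and Cyp8b1 at -0.11 lay below it. Their swap components passed for 15 genes above 0 and for 5 below it, with a median of 0.41, where 86.5% of all features passed, 40.6% above 0.

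Markers of liver cell types were read beside the 5 genes in both components. Of 5 measured hepatocyte markers, 3 passed in the shared component on the same positive side as Nr0b2, where 1.62% of all features did. They were Cyp1a2 at 0.62, the plasma carrier transthyretin Ttr at 0.23 and transferrin Tf at 0.19, while Apoa1 stood at -0.095 and Cyp2e1 at 0.038. As deposited, 2 of the 5 were positive. Swap components of 4 of the 5 passed on the positive side, where 40.6% of all features did. Cyp1a2 and Apoa1 stood there at 0.57, Tf at 0.38 and Ttr at 0.37, and Cyp2e1 at 0.022 did not pass. The deposited swap components of Cyp1a2 and Apoa1 were positive at 0.048 and 0.046 and those of the other 3 negative.

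The 3 measured bile duct markers stood on the other side of the swap component from these markers and from Nr1h4, Nr0b2, Cyp7a1 and Cyp27a1. All 3 passed there on the negative side, Cd24 at -0.68, Spp1 at -0.75 and Ggt1 at -0.76, where 45.8% of all features did. As deposited they were negative too, at -1.21, -1.28 and -1.29, where 78.1% of all features passed on the negative side. Control spots without annotation lay on both sides of 0 in the centred swap component. Their medians by position ran from -0.93 to 0.68, with 6 positions positive and 12 negative. Positions 102 to 104, 111 to 113 and 114 to 116 had medians of -0.78, -0.92 and -0.92 (deposited -1.31, -1.44 and -1.44). Values like those of the bile duct markers thus also occurred at spots without an annotated gene. In the shared component none of the 3 bile duct markers passed, with Cd24 at -0.065, Spp1 at -0.010 and Ggt1 at 0.017. The myeloid marker Fcgr2b stood at -0.12 in the shared component and the platelet marker Pf4, from the erythroid list, at 0.0098, neither past the threshold, and 0 of 4 endothelial, stellate and fibroblast markers passed there, between -0.095 and -0.024. In the swap component Fcgr2b passed at 0.25, Pf4 at -0.53, Vim at 0.46, Col1a1 at -0.27 and Timp1 at -0.36, and Kdr at -0.017 did not. The part of these cell types in the values of the 5 genes was not tested. The log ratios hold no brightness, so the level of any marker and the signal over background of the spots could not be checked.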

How the data were processed

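The arrays were spotted with cDNA in 16 print blocks, and the authors deposited 1 log ratio per spot and array, 1936 spots with 0 missing values. The base of the logarithm, the direction, the scanner, the background correction and the normalization were not found in the labels or the file. The 288 spots at positions with no annotation in any block were taken as control spots and left out. Of 1648 gene spots, 1432 had 1 symbol in the platform annotation (1429 were found in the rat gene table through their Entrez number, 0 renamed), 19 had several genes and 197 none. The median over gene spots was subtracted from each array, and spots of a gene were averaged. Shared and swap components were fitted in limma 3.58.1 (R 4.3.3; lmFit and eBayes with an intercept and a dye term, 2 residual degrees of freedom, two-sided) over 1174 features with Benjamini-Hochberg adjustment. Simulated data were used to check the error of the estimates and the calls at large effects. That check set no limit on false calls or on calls at smaller effects. Pairs of genes were compared by an exact sign-flip permutation test. Figures were drawn with matplotlib 3.10.9. The precision is limited by the 4 arrays. The genes, the lists, the fits and the rule for named genes were chosen with earlier results of these data known. That rule took every spot and average of the 5 genes, for each list the genes past the threshold in the shared component (up to 4) or else the largest, and the 3 nearest genes of each member; other genes were named after their values were seen. Removal of a trend on the swap component (lowess, span 0.4) and the look at the zero of the control spots were added after the data were examined.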

Additional observations from a re-analysis of the deposited data

How the results depend on the processing

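Over all features, 46 passed in the shared component. The count was 1061 with values as deposited (4 positive, 1057 negative), 87 of 1648 with every spot on its own, 101 of 1462 with control spots kept (72 positive, 29 negative) and 0 with no dye term, and between 28 and 86 with 1 array left out (28 without array 3, 86 without array 2). In the swap component 1015 passed (477 positive, 538 negative), and 950 as deposited (33 positive, 917 negative). Nr0b2 in the shared component fell short of the threshold as deposited (0.020), with no dye term (0.24 with an SE of 0.23), in the block 15 spot alone (0.17) and without array 3; over the arrays left out it lay between 0.21 and 0.26. It passed in the other settings, among them block centring (0.21) and removal of the trend on the swap component (0.25). As deposited, the shared components of Nr1h4 (-0.26), Cyp7a1 (-0.28) and Cyp8b1 (-0.32) passed and Cyp27a1 turned to -0.14. With arrays left out, Nr1h4 lay between -0.099 and 0.0091. The Cyp8b1 spot of block 12 passed on its own at -0.20. In the swap component, values as deposited turned Nr1h4 (-0.33), Nr0b2 (-0.064) and Cyp7a1 (-0.25) to the negative side, left Cyp27a1 at 0.072 short of the threshold and brought Cyp8b1 past it at -0.53. Block centring gave 0.071 for Nr1h4, no longer past the threshold, and -0.12 for Cyp8b1, now past it. Each Cyp8b1 spot on its own passed there, at -0.53 in block 4 and 0.51 in block 12, and the gene lay between -0.042 and 0.026 with 1 array left out, positive without array 3 or array 4. Nr1h4 minus Cyp7a1 in the shared component lay between -0.030 and 0.070 with 1 array left out, negative without array 4. A fit without 1 array leaves 1 array of an orientation, assumed to vary like the others. Except for the choice of zero, the cause of these changes was not tested. No paired analysis was possible because the arrays form a single group. Spot brightness is unknown, so filters on dim spots and other background corrections were not run.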
